A study of Mus musculus with 8 samples.

Results

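The 10 genes described here mark T cells and natural killer (NK) cells in epididymal white adipose tissue (WAT): Cd3d, Cd3e, Cd3g, Cd8a, Cd2, Lck, Nkg7, Gzma, Gzmb and Il7r. They were chosen by name, and every probe annotated to them on the array was read. A probe was found for 9 of the 10 genes, and these carried 11 of the 25696 probes, since Il7r had 3. The annotation used here pairs no probe with Lck, which was therefore not analysed here. The array carried 16593 named genes in all.

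Male C57BL6/J mice aged 4 months supplied the tissue, and the study's methods state that both groups ate a low fat diet. Tissue of the 4 Agt Tg samples came from mice that overexpress angiotensinogen (Agt), the precursor of the angiotensin peptides, in adipose tissue. The study names aP2, a promoter of adipocytes that is also active in macrophages, as the driver of the transgene. The 4 Wt samples came from wild type mice. Each sample was hybridised to 1 Illumina mouse BeadChip array, and the labels do not state separate animals for them, and p-values then cover only the variation among these 8 samples, which may be technical.

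T cells recognise antigen through the T cell receptor, whose signal is carried into the cell by the CD3 chains, and NK cells and cytotoxic T cells kill targets with proteins stored in granules. In white fat both are found among the stromal cells between adipocytes. Whole tissue was measured, so fewer cells of a type and less RNA per cell cannot be told apart.

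Across the arrays the number of detected probes ran from 11253 to 12284 and the median intensity from 125 to 154 (linear intensity, before normalization). The 11624 probes detected on at least 4 of the 8 arrays were compared, and they covered 8285 genes. All 9 of the white adipocyte markers that had a probe were measured, and so were 49.9% of all genes with a probe. Their mean log2 intensity ran from 14.9 in both groups for Lep to 5.07 in Agt Tg and 5.10 in Wt for Retn. Being measured does not by itself show the labelled tissue. Agt itself averaged 7.58 ± 1.19 on arrays labelled Agt Tg and 8.14 ± 0.57 on Wt arrays (log2 intensity, SD, n = 4 each), a difference of -0.56 ± 0.48 (SE, limma adjusted p = 0.718). It was not higher on the arrays labelled Agt Tg, so every direction below rests on the labels. No source used here says whether the Agt probe reads the transgene.

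Detection separated the genes. A probe counted as detected on an array where its detection p against negative control beads was under 0.05. Cd3e and Cd3g, chains of the T cell receptor complex, Cd2, an adhesion receptor of T and NK cells, and Nkg7, a granule membrane protein of cytotoxic lymphocytes, were detected on all 4 Agt Tg arrays and all 4 Wt arrays. Cd3d, the other CD3 chain, was detected on 2 Agt Tg arrays and 4 Wt arrays. The brightest probe of Il7r, the interleukin 7 receptor that keeps resting T cells alive, was detected on all 8 arrays. Its next brightest probe was detected on 2 Agt Tg arrays and 3 Wt arrays, and the dimmest on 1 Agt Tg array and 0 Wt arrays.

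Cd8a, the co-receptor of cytotoxic T cells, and the granzymes Gzma and Gzmb, the proteases of cytotoxic granules, were detected on 0 of 8 arrays. Their lowest detection p on any array was 0.48 for Cd8a, 0.0752 for Gzma and 0.206 for Gzmb. Cd8a intensity ran from 102 to 123 on Agt Tg arrays and from 99.1 to 127 on Wt arrays, within or below the range of the array medians. No difference is given for these 3 genes, because their level was not above background in either group. 6 genes were thus compared: Cd3d, Cd3e, Cd3g, Cd2, Nkg7 and Il7r. Cd3d passed with 2 Agt Tg arrays and all Wt arrays detected, so counts over the 6 are descriptions of the genes that passed.

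**Figure D1:**
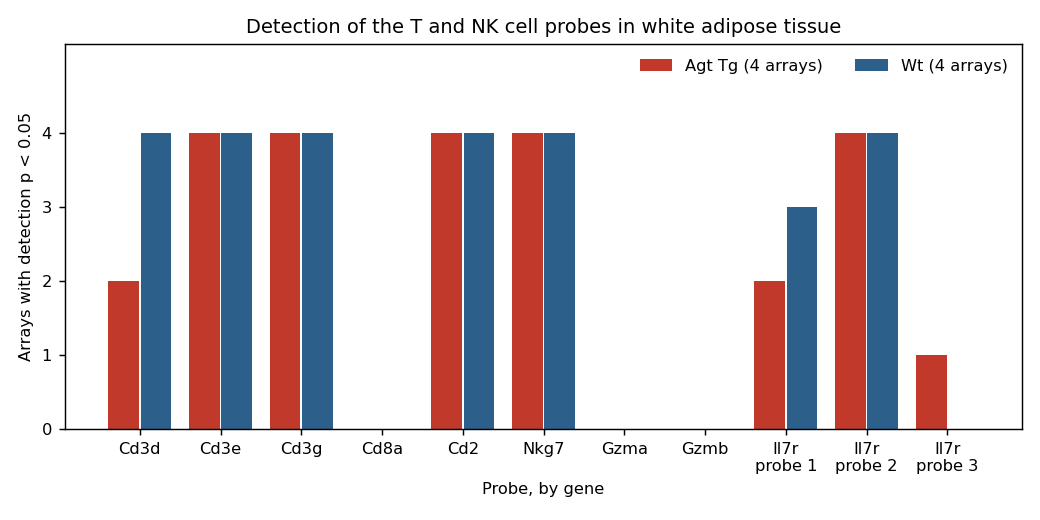
Arrays with a detection p under 0.05 (vertical axis, of 4 per group) for each of the 11 probes (horizontal axis), with Agt Tg bars left of Wt bars. Cd8a, Gzma and Gzmb stand at 0 in both groups, and Cd3d at 2 Agt Tg and 4 Wt arrays. The brightest Il7r probe is the one drawn as probe 2.

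None of the 6 genes passed an adjusted p of 0.05 (limma with Benjamini-Hochberg over all 11624 probes), and 0% of all probes did. At an unadjusted p under 0.05, 1145 probes were called. Of the 6 genes 2 were called, Cd3d and Cd3e, both lower in Agt Tg. Over all 8285 genes 9.28% were called in either direction and 5.35% as lower. The 6 differences were all below 0, as were 48% of all genes, with a median of -0.41 against a median of 0.014 over all genes (log2 difference, Agt Tg minus Wt). The groups overlapped for each of the 6, and over all genes 6.36% did not overlap. With no detection filter, 8 of the 9 genes with a probe were below 0, with a median of -0.14. That count takes in Cd8a, Gzma and Gzmb, which were detected on 0 arrays, so their signs describe background only.

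The CD3 chains gave the 3 differences farthest from 0. Cd3d was 6.13, 4.78, 4.99 and 6.18 on Agt Tg replicates 1 to 4, against 6.14, 5.59, 6.58 and 7.34 on Wt replicates 1 to 4 (log2 intensity). Agt Tg replicates 2 and 3 were below every Wt array, and Agt Tg replicates 1 and 4 lay within the Wt range. The means were 5.52 ± 0.74 in Agt Tg and 6.41 ± 0.74 in Wt WAT (SD, n = 4 each). The difference was -0.89 ± 0.40 (SE), with a 95% interval of -1.76 to -0.02, an unadjusted p of 0.0449 and a limma adjusted p of 0.505. The exact permutation test over the 70 assignments of the arrays gave a two-sided p of 0.171, where the smallest it can give is 0.0286.

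Cd3e was 5.65, 5.32, 5.19 and 6.29 on Agt Tg replicates 1 to 4, against 5.75, 5.96, 6.83 and 6.71 on Wt replicates 1 to 4 (log2 intensity). 3 Agt Tg arrays were below every Wt array, and Agt Tg replicate 4 stood above Wt replicates 1 and 2. The difference was -0.70 ± 0.31 (SE, unadjusted p = 0.0409, limma adjusted p = 0.499, exact permutation p = 0.114 two-sided).

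Cd3g was 6.54, 6.29, 6.03 and 6.77 on Agt Tg replicates 1 to 4, against 7.07, 6.62, 6.31 and 7.53 on Wt replicates 1 to 4 (log2 intensity). Unlike the other chains, it was low on Wt replicate 3, which fell among the Agt Tg values, as did Wt replicate 2. The difference was -0.48 ± 0.27 (SE, unadjusted p = 0.105, limma adjusted p = 0.569, exact permutation p = 0.171 two-sided).

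These levels were close to background: Cd3e intensity before normalization was 145 to 189 on Agt Tg arrays and 161 to 238 on Wt arrays. The size of the differences therefore depends on how background is treated. In the deposited log2 values, from which no background was subtracted, they were -0.34 for Cd3d, -0.26 for Cd3e and -0.24 for Cd3g. Leaving out any one of Agt Tg replicate 2, Agt Tg replicate 3, Wt replicate 3 and Wt replicate 4 took both unadjusted calls away. Without Wt replicate 3 Cd3g was called in their place (unadjusted p = 0.0267, limma adjusted p = 0.387). The Cd3e call was also lost without Agt Tg replicate 1 and the Cd3d call without Wt replicate 1. The Cd3d difference was -0.59 without Wt replicate 4. The Cd3g difference was -0.26 without Wt replicate 4.

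**Figure D2:**
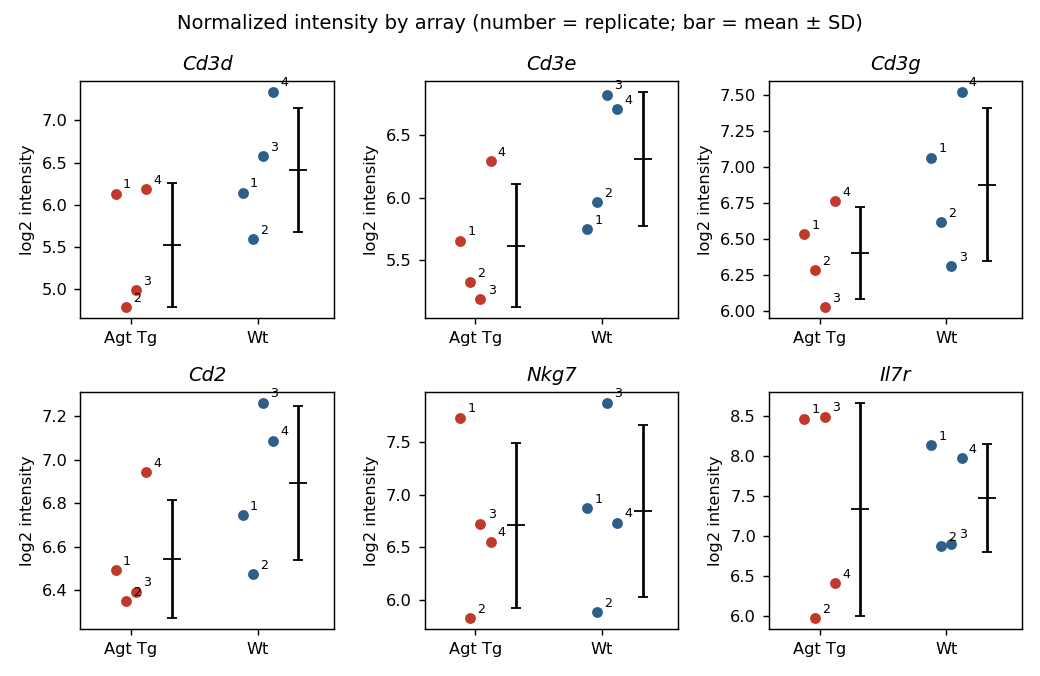
Normalized log2 intensity (vertical axes) of the 6 measured genes on each array, numbered by replicate, with Agt Tg left of Wt and bars for the mean ± SD. The groups overlap in every panel, and Cd3d is lowest on Agt Tg replicates 2 and 3 (4.78 and 4.99).

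Cd2 was 6.49, 6.35, 6.39 and 6.94 on Agt Tg replicates 1 to 4, against 6.74, 6.47, 7.26 and 7.09 on Wt replicates 1 to 4 (log2 intensity). Agt Tg replicate 4 lay among the Wt values, and Wt replicate 2 below Agt Tg replicate 1. The difference was -0.35 ± 0.23 (SE, unadjusted p = 0.151, limma adjusted p = 0.625, exact permutation p = 0.2 two-sided). It was -0.23 without Wt replicate 3.

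Nkg7 was 7.73, 5.83, 6.72 and 6.55 on Agt Tg replicates 1 to 4, against 6.87, 5.88, 7.88 and 6.74 on Wt replicates 1 to 4 (log2 intensity). One array of each group was high, Agt Tg replicate 1 and Wt replicate 3, and one of each was low, the replicates numbered 2. The difference was -0.13 ± 0.43 (SE, limma adjusted p = 0.943), with a 95% interval of -1.06 to 0.79. Its sign turned without Agt Tg replicate 2, to 0.16, and without Wt replicate 3, to 0.21.

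Il7r was 8.46, 5.98, 8.49 and 6.41 on Agt Tg replicates 1 to 4, against 8.13, 6.87, 6.91 and 7.97 on Wt replicates 1 to 4 (log2 intensity, brightest probe). In each group 2 arrays were high and 2 were low, with no array between 6.91 and 7.97. The difference was -0.14 ± 0.54 (SE, limma adjusted p = 0.957), with a 95% interval of -1.30 to 1.03. The next brightest probe gave 0.079 ± 0.28 (SE, limma adjusted p = 0.951), with its highest value, 6.03, also on Agt Tg replicate 3. The sign of the brightest probe turned without any one of Agt Tg replicates 2 and 4 and Wt replicates 1 and 4, to values of 0.032 to 0.32.

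**Figure D3:**
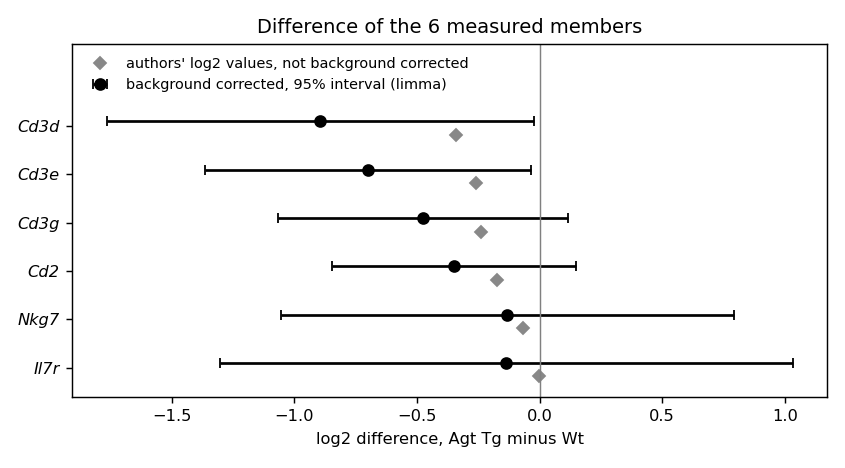
Log2 difference, Agt Tg minus Wt (horizontal axis), of the 6 measured genes, with the intervals defined in the legend. Cd3d (-0.89) and Cd3e (-0.70) lie farthest below 0, and Nkg7 (-0.13) and Il7r (-0.14) lie near it with the widest intervals.

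The 3 CD3 genes are neighbours on mouse chromosome 9, in the order Cd3g, Cd3d and Cd3e, and the starts of Cd3d and Cd3g lie 1355 bases apart. Their promoter windows are shown because these chains gave the 3 differences farthest from 0. RefSeq windows of build GRCm38.p6, running from 250 bases before to 50 bases after a gene's start, were found for 9 of the 10 genes. Capitals mark AGGAA on either strand (TTCCT on the other), the core that ETS family factors, among them Ets1 of T cells, are known to bind. The windows are Cd3d at chr9:44981536-44981835, plus strand, Cd3e at chr9:45009562-45009861, minus strand, and Cd3g at chr9:44980382-44980681, minus strand, each written 5′ to 3′ on the gene's strand.
Cd3d: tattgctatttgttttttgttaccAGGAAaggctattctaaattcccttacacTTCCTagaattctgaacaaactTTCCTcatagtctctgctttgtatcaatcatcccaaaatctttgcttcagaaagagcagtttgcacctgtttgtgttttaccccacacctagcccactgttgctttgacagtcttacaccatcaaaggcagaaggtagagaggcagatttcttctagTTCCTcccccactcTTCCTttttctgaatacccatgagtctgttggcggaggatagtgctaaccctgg
Cd3e: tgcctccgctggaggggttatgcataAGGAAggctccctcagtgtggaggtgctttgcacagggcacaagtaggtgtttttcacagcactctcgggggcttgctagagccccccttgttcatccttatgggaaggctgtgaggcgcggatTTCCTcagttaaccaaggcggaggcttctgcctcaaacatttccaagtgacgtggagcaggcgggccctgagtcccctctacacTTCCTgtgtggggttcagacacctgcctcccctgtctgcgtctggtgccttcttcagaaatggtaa
Cd3g: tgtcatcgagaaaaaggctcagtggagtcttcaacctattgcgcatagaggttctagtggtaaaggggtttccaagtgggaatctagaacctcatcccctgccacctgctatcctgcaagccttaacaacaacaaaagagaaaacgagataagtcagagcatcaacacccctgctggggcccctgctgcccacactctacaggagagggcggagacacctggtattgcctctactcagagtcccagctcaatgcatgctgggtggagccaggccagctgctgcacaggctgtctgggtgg
The Cd3d window held 5 matches, the Cd3e window 3 and the Cd3g window 0, and 66.7% of the 32851 windows of this length held at least 1. A second motif, of RUNX factors, was searched in 2 spellings on both strands. The first, TGNGGT, matched 1 time in each CD3 window and in 45.8% of all windows. The letters were narrowed to TGTGGT after those matches had been seen, and this spelling matched 0 times in the CD3 windows and in 16.8% of all windows. An E-box, CANNTG, matched 1 time in the Cd3d window, 2 times in the Cd3e window and 4 times in the Cd3g window, and in 72.3% of all windows. Neither RUNX spelling overlaps AGGAA, a match is not a bound site, and no binding was measured.

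The level of these genes differed between arrays of 1 group. Agt Tg replicate 2 held the lowest value of 4 of the 6 genes and Agt Tg replicate 3 that of the other 2. Wt replicate 3 held the highest value of 3 genes, Wt replicate 4 of 2 and Agt Tg replicate 3 of 1, Il7r.

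Over the 8 arrays 15 pairs of genes were correlated, and 3 passed after adjustment over the 15 pairs. Cd3e and Cd2 gave r = 0.94 (exact permutation p = 0.000868, adjusted 0.0130) and rho = 0.90 (exact permutation p = 0.00456, adjusted 0.0342). Cd3d and Cd3e gave r = 0.87 (exact permutation p = 0.00645, adjusted 0.0361) and rho = 0.88 (exact permutation p = 0.00724, adjusted 0.0362). Cd3d and Cd2 gave r = 0.84 (exact permutation p = 0.00722, adjusted 0.0361) and rho = 0.98 (exact permutation p = 0.000397, adjusted 0.00595).

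Cd3d, Cd3e and Cd2 thus followed each other across the arrays. Without the 2 arrays farthest from the median of the first gene, r was 0.81 for Cd3e with Cd2, 0.80 for Cd3d with Cd3e and 0.81 for Cd3d with Cd2. After each group's mean was taken away, r was 0.91 for Cd3e with Cd2, 0.79 for Cd3d with Cd3e and 0.78 for Cd3d with Cd2. Cd3g with Cd3d gave r = 0.76 (exact permutation p = 0.0280, adjusted 0.105) and rho = 0.69 (exact permutation p = 0.0694, adjusted 0.249), which did not pass, and r was 0.47 without 2 arrays. Il7r with Cd3e gave r = -0.18 (exact permutation p = 0.658, adjusted 0.769) and rho = -0.31 (exact permutation p = 0.462, adjusted 0.630). The count of 3 pairs was 0 with any one of Agt Tg replicates 2, 3 and 4 and Wt replicate 4 left out, 1 without Wt replicate 1 or Wt replicate 2, and 6 without Wt replicate 3.

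**Figure D4:**
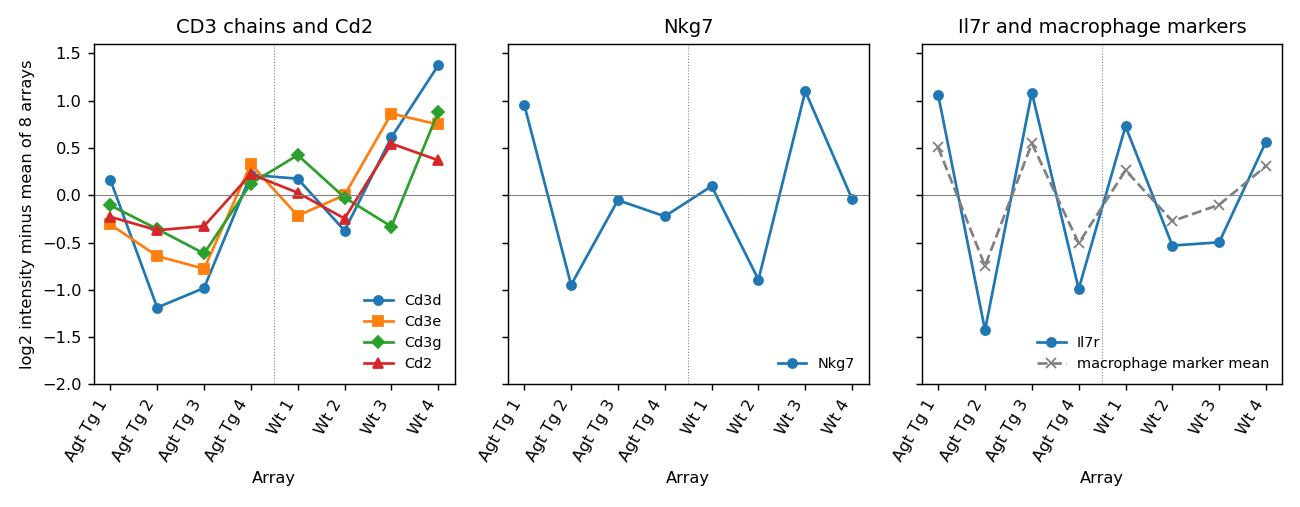
Log2 intensity minus the mean of the 8 arrays (vertical axes) by array (horizontal axes), with Agt Tg arrays left of the dotted line and Wt arrays right of it. Cd3d, Cd3e and Cd2 share their low arrays, Agt Tg replicates 2 and 3, while Il7r is at its highest (8.49) on Agt Tg replicate 3.

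Markers of other cell types moved with some of these genes. Levels of 3 marker lists, each the mean log2 intensity of its measured genes, were set against the 6 genes, giving 18 relations. The 3 lists were picked after their means by array had been seen. 3 of the 18 relations passed after adjustment over the 18, and 2 of these concerned Il7r. That adjustment does not cover the choice of the 3 lists among more lists, so its p-values are too small by an unknown amount.

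The macrophage list, with 12 genes measured of 13 that had a probe, averaged 9.74, 8.49, 9.78 and 8.73 on Agt Tg replicates 1 to 4, against 9.50, 8.96, 9.14 and 9.55 on Wt replicates 1 to 4. Its 4 highest arrays were the 4 arrays with high Il7r, 2 of each group. Il7r followed it with r = 0.99 (exact permutation p = 0.000124, adjusted 0.00223) and rho = 0.98 (exact permutation p = 0.000397, adjusted 0.00714). Among the 4 arrays with low Il7r the order of both measures was the same, and among the 4 with high Il7r 1 neighbouring pair, Wt replicates 1 and 4, was exchanged. Sets of 4 arrays are too small for a correlation of their own. Without the 2 arrays farthest from the median r was 0.98, within the groups 0.99, and over the alternatives run it ranged from 0.971 to 0.996. Between the groups 5 of the 12 genes were below and 7 above 0, with a median log2 difference of 0.040. Only Cd163 was at an unadjusted p under 0.05, as were 9.28% of all genes. It gave -1.20 ± 0.20 (SE, limma adjusted p = 0.224). Its groups did not overlap, as for 6.36% of all genes, and its other probe was detected on 0 arrays.

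Il7r ran against the white adipocyte list (9 genes), with r = -0.90 (exact permutation p = 0.00126, adjusted 0.0114) and rho = -0.90 (exact permutation p = 0.00456, adjusted 0.0411), and r was -0.81 without 2 arrays. That list ranged from 10.80 to 11.49 in Agt Tg and from 11.03 to 11.36 in Wt WAT. Cd3e with the macrophage list gave r = -0.09 (exact permutation p = 0.830, adjusted 0.995) and rho = -0.24 (exact permutation p = 0.582, adjusted 0.935). Which cells the Il7r signal came from was not tested.

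The remaining relation joined Cd3g to B and plasma cell markers, with r = 0.90 (exact permutation p = 0.00335, adjusted 0.0201) and rho = 0.88 (exact permutation p = 0.00724, adjusted 0.0435), and r was 0.84 without 2 arrays. The B and plasma cell list held 6 measured genes of 11 with a probe, and its level ranged from 4.75 to 6.67 in Agt Tg and from 5.76 to 8.04 in Wt WAT. All 6 were below 0, with a median log2 difference of -1.05, and 3 were lower at an unadjusted p under 0.05. None of these passed at adjusted p. Over all genes 48% were below 0 and 5.35% were called as lower. Fcer2a, among the 3, was detected on 1 Agt Tg array and 3 Wt arrays, so these counts describe the genes that passed the filter. Of the list's markers Fcmr was detected on 8 arrays, Cd79b and Mzb1 on 7, Cd79a on 6, Fcer2a and Blk on 4, Ms4a1 on 2 and Pax5 on 0. The list's part in the lower CD3 levels was not tested.

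Neutrophil and mast cell lists were read in the same comparison, where 48% of all genes were below 0 and 9.28% were at an unadjusted p under 0.05. Of neutrophil markers 5 of 8 with a probe were measured, 4 below and 1 above 0, with a median log2 difference of -0.52, and their mean level ranged from 6.63 to 7.17 in Agt Tg and from 7.29 to 7.53 in Wt WAT. 2 of them were at an unadjusted p under 0.05, Retnlg at -0.94 ± 0.26 (SE, limma adjusted p = 0.348) and Mmp9 at -0.83 ± 0.33 (SE, limma adjusted p = 0.464). Of mast cell markers 6 of 7 with a probe were measured, all above 0, with a median of 0.50 and 0 at an unadjusted p under 0.05. Their mean level ranged from 6.36 to 7.51 in Agt Tg and from 5.56 to 6.87 in Wt WAT. Tpsab1 was detected on 4 Agt Tg arrays and 1 Wt array, and Fcer1a on 4 Agt Tg and 2 Wt arrays. The mast cell count thus describes the genes that passed the filter. Other measured probes gave -0.022 for Cma1 and 0.091 for Cpa3. Ngp of the neutrophil list and Ms4a2 of the mast cell list were detected on 0 arrays. The part of these lists in the CD3 levels was not tested.

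**Figure D5:**
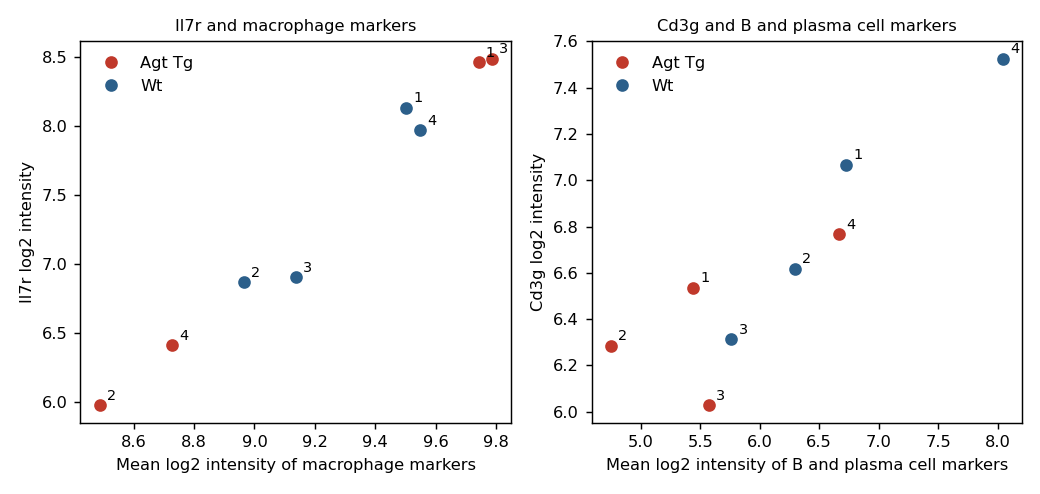
Log2 intensity of the named gene (vertical axes) against the mean log2 intensity of a marker list (horizontal axes), with 1 point per array and Agt Tg listed before Wt in the legend. Il7r rises with the macrophage list in both groups (r = 0.99 over 8 arrays).

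The partners of these genes were read from lists of related genes, each gene by its brightest measured probe. For the counts of each list, the shares over all genes were 48% below 0, 9.28% called at an unadjusted p under 0.05 and 5.35% called as lower. The list of T cell receptor components and co-receptors had 6 measured genes of 12 with a probe: 5 were below 0 and 1 above, and 2 were lower at an unadjusted p under 0.05. Ptprcap, which associates with the phosphatase CD45, gave -0.79 ± 0.36 (log2 difference, SE, unadjusted p = 0.0485), and Cd27, a co-stimulatory receptor, -0.70 ± 0.32 (unadjusted p = 0.0494), both with a limma adjusted p of 0.505. Each was detected on only 2 Agt Tg arrays. Cd6, a receptor that modulates T cell activation, gave -0.60 ± 0.33 (limma adjusted p = 0.562). Other measured probes of Cd6 gave smaller differences, -0.24 ± 0.27 and -0.063 ± 0.37 (SE, limma adjusted p = 0.797 and 0.971). Cd27 was 6.01, 4.85, 4.46 and 5.44 on Agt Tg replicates 1 to 4, against 5.71, 5.49, 5.97 and 6.38 on Wt replicates 1 to 4, so it too was lowest on Agt Tg replicates 2 and 3.

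Cd8b1, the partner chain of Cd8a, was detected on 7 arrays by its brightest probe and on 0 arrays by its other probe. The brightest probe was 6.51, 4.87, 6.03 and 6.08 on Agt Tg replicates 1 to 4, against 6.15, 5.90, 6.90 and 6.69 on Wt replicates 1 to 4 (log2 intensity). The array below background was Agt Tg replicate 2, and the groups overlapped, with a difference of -0.54 ± 0.34 (SE, limma adjusted p = 0.614). Cd247, the zeta chain that signals beside CD3, was detected on all 8 arrays by 1 probe and on 0 arrays by its other 2. The detected probe had means of 5.54 ± 0.27 in Agt Tg and 5.50 ± 0.19 in Wt WAT (SD, n = 4 each) and a difference of 0.036 ± 0.21 (SE, limma adjusted p = 0.973). Cd4, the co-receptor of helper T cells, was detected on 1 array.

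Of T cell receptor signalling genes 8 of 18 with a probe were measured, 5 below and 3 above 0, and 0 were at an unadjusted p under 0.05. The lowest p was that of Rasgrp1, a Ras activator of lymphocytes, at -0.51 ± 0.25 (SE, limma adjusted p = 0.523). Zap70, the kinase recruited to the phosphorylated receptor, gave -0.28 ± 0.29 (SE, limma adjusted p = 0.776), and Vav1, an exchange factor downstream of it, -0.26 ± 0.29 (SE, limma adjusted p = 0.794). Of transcription factors of T cells 4 of 10 were measured, 3 below and 1 above 0, and 0 were at an unadjusted p under 0.05. Foxp3, the factor of regulatory T cells, was the one above 0, at 0.27 ± 0.31 (SE, limma adjusted p = 0.797), with Ikzf1 at -0.27 ± 0.29 and Satb1 at -0.17 ± 0.23 (SE).

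The cytotoxic granule and NK receptor list had 9 measured genes of 22 with a probe, 7 below and 2 above 0, with 1 at an unadjusted p under 0.05. That gene was Srgn, the proteoglycan core of granules, which other blood cells also make. It was 5.21, 4.60, 5.08 and 4.77 on Agt Tg replicates 1 to 4, against 6.44, 5.87, 6.79 and 6.55 on Wt replicates 1 to 4. Its groups did not overlap, as for 6.36% of all genes. It was detected on 2 Agt Tg arrays and 4 Wt arrays. Its difference was -1.50 ± 0.24 (SE, unadjusted p = 3.72e-05), which did not pass at a limma adjusted p of 0.224. Another Srgn probe was detected on only 2 arrays and was not compared.

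Prf1, the pore-forming perforin, gave 0.14 ± 0.27 (SE, limma adjusted p = 0.891). Ccl5, a chemokine of activated T and NK cells, averaged 6.04 ± 1.16 in Agt Tg and 6.47 ± 0.23 in Wt WAT (SD, n = 4 each, limma adjusted p = 0.773), and it was not above background on Agt Tg replicate 2. Klrg1 and Cst7, an NK and T cell receptor and a granule protease inhibitor, gave -0.66 ± 0.41 and -0.41 ± 0.29 (SE, limma adjusted p = 0.603 and 0.652). Klrg1 was detected on 2 Agt Tg and 3 Wt arrays, and Cst7 on 1 Agt Tg array and 3 Wt arrays. Counts over the cytotoxic granule and NK receptor list thus describe the genes that passed the filter. Klrb1c, the NK1.1 antigen, was detected on 0 arrays.

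Of the interleukin 7 and common gamma chain list 8 of 13 genes with a probe were measured, 1 below and 7 above 0, with a median log2 difference of 0.21, and 0 were at an unadjusted p under 0.05. Il7, the ligand of Il7r, averaged 7.32 ± 0.22 in Agt Tg and 7.04 ± 0.37 in Wt WAT (SD, n = 4 each), a difference of 0.28 ± 0.22 (SE, limma adjusted p = 0.691). Jak3, the kinase of the common gamma chain, gave 0.30 ± 0.23 (SE, limma adjusted p = 0.684). Cish, a feedback inhibitor of STAT5 signalling, gave 0.79 ± 0.57 (SE, limma adjusted p = 0.659), and its highest values, 8.97 and 9.36, were on Agt Tg replicates 2 and 4, the arrays with the lowest Il7r. The same arrays held the highest means of the white adipocyte list (both 11.49) and the lowest of the macrophage list (8.49 and 8.73). A link of Cish to Il7r was not tested.

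Of ligands and adhesion partners of T cells 11 of 17 with a probe were measured, 7 below and 4 above 0, with 2 lower at an unadjusted p under 0.05. Icam1, the ligand of the integrin LFA-1, was 7.50, 7.30, 7.51 and 7.34 on Agt Tg replicates 1 to 4, against 7.61, 7.83, 7.81 and 8.23 on Wt replicates 1 to 4. Its groups did not overlap, as for 6.36% of all genes (difference -0.46 ± 0.18, SE, limma adjusted p = 0.464). B2m, the invariant chain of MHC class I, gave -0.27 ± 0.12 (SE, limma adjusted p = 0.502), and Slamf7 gave 0.44 ± 0.29 (SE, limma adjusted p = 0.629). Slamf7 was detected on 3 Agt Tg arrays and only 1 Wt array. Cd48, the mouse ligand of Cd2, was detected on 0 arrays. No gene of these lists passed at adjusted p under 0.05.

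The 5 genes most alike to the mean pattern of the 6 were found among the other 8279 measured genes, by the Pearson r of each with the mean centred profile of the 6 over the 8 arrays. They were Ccl8, a chemokine, at 0.95, Cd8b1 at 0.93, Rap1b, a small GTPase, at 0.92, Btla, an inhibitory receptor of lymphocytes, at 0.92 and Sh3tc1 at 0.91. 13 genes stood above 0.9, and the median over all was -0.016. These values describe 8 arrays of 1 normalization and carry no test. The mean profile is weighted toward genes of wide range, such as Il7r (2.51 over the arrays) against Cd2 (0.92). It is not a pattern that all 6 share: r was above 0 for 12 of their 15 pairs and ran from -0.18 to 0.94. Ccl8 was 8.09, 5.96, 6.94 and 7.07 on Agt Tg replicates 1 to 4, against 8.46, 6.41, 7.86 and 8.69 on Wt replicates 1 to 4, lowest on Agt Tg replicate 2 and highest on Wt replicate 4. Btla was lowest on Agt Tg replicate 2, at 5.23, and highest on Wt replicate 4, at 6.41.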

How the data were processed

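Total RNA of epididymal WAT from 4 Agt Tg and 4 Wt samples had been labelled with biotin and hybridised to Illumina mouse BeadChips. The authors deposited linear bead intensity values before normalization, each with a detection p-value deposited by the authors for that probe and array. The authors also deposited log2 values made with lumi (version and settings not given in the sources used here), which were quantile normalized without background subtraction and served as an alternative. Probes were named through the platform annotation and RefSeq (GRCm38.p6).

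Groups and replicate numbers came from the labels. Background correction took its negative controls from the detection p-values (neqc, offset 16), and quantile normalization followed, in limma 3.58.1 and R 4.3.3. Probes with detection p under 0.05 on at least 4 of 8 arrays were fitted with lmFit and eBayes (trend), with group as the factor, with Benjamini-Hochberg adjustment across all 11624 probes so kept. The brightest kept probe stood for a gene, and differences are Agt Tg minus Wt. The fit was run on simulated data drawn independently for each probe and array. That run cannot show how the fit behaves where probes of an array vary together. Each member was tested by exact permutation too, over 70 assignments, and correlations by exact permutation of all orders. The number of arrays limits the precision.

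The members and lists were chosen with earlier results of these data known. Named genes were all members, Agt, fixed partners, the 3 genes of lowest p in each related list, and the 5 most alike in pattern. Markers of the cell type lists were named outside this rule, some of them, such as Retnlg, Mmp9 and Cd163, for their p-values. Promoter motifs, one of them respelled after its first matches were seen, were searched on both strands of RefSeq windows. Il2rg, a fixed partner, and Lck were paired with no probe here. Alternatives were other background and scaling choices, the authors' log2 values, other filters, averaging the probes of a gene, a fit with no variance trend, array weights, a replicate block, and leaving out each array. The alternatives for the correlations, for the median of all genes and for the count of members at unadjusted p were added after the data were seen.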

Additional observations from a re-analysis of the deposited data

How the results depend on the processing

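Under each of the 17 alternatives limma called 0 probes at adjusted p under 0.05. At unadjusted p under 0.05, 1145 probes became 2126 with no detection filter, and 742 to 1328 with 1 array left out, the lowest without Wt replicate 1. Cd3d, Cd3e, Cd3g and Cd2 stayed below 0 wherever they were measured: Cd3d was -1.17 to -0.59, Cd3e -0.93 to -0.53, Cd3g -0.67 to -0.26 and Cd2 -0.49 to -0.23 with 1 array left out. Detection p under 0.01 on all arrays removed Cd3d and Cd3e. The median of the measured members was -0.54 to -0.27 with 1 array left out and -0.59 to -0.14 otherwise. The -0.14 came with no detection filter, where Cd8a, Gzma and Gzmb, not above background, were counted too. The number of measured members below 0 was 4 to 6 with 1 array left out. Median scaling moved the median of all genes to -0.12, and the members' median to -0.59.

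Nkg7 was -0.47 to 0.21 with 1 array left out, turning to 0.21 when Wt replicate 3 and to 0.16 when Agt Tg replicate 2 was left out, and to 0.24 with array weights. Il7r was -0.52 to 0.32 with 1 array left out, turning to 0.32 and 0.17 when Agt Tg replicate 2 or 4 was left out, to 0.086 and 0.032 when Wt replicate 1 or 4 was, and to 0.046 with array weights. The cause was not tested.

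The count of members at unadjusted p under 0.05, main value 2, was 0 to 2 with 1 array left out, 0 under the strict filter, and 3 with median scaling, array weights or the replicate block. Correlated pairs numbered 3, against 0 under the strict filter, which left 4 members, and 0 to 6 with 1 array left out.

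Whether the replicate numbers pair the samples cannot be told from these values. Deviations of same-numbered arrays correlated at 0.33, 0.39, -0.037 and -0.082. The 4 of 8 arrays that correlated best with their own number were replicates 1 and 2 of each group. With the replicate block 0 probes passed limma's adjusted p, 1368 were at unadjusted p under 0.05, and Cd3d had a limma adjusted p of 0.262, the lowest over its alternatives. In that fit 3 of 6 members were called, Cd3d, Cd3e and Cd3g (limma unadjusted p = 0.00682, 0.0243 and 0.0341). Signal over background is the limit for the dim members: Cd8a, Gzma and Gzmb give no level here.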
